A study of Arabidopsis thaliana with 32 samples.

Results

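AT1G33600, which encodes a leucine-rich repeat protein, and AT2G15880, which encodes an extensin-like leucine-rich repeat protein, are described here in *Arabidopsis thaliana* roots under 4 osmotic solutes. They are 2 of 28283 genes measured, counting as genes 11744 that are known by probe set only. Each of the 2 was named by 1 probe set in the array annotation. Both were chosen by their measured log2 values in these data, because those values were higher under NaCl than under the other solutes at equal mM and at equal nominal osmolarity. Their NaCl values are therefore given as a description, with no test. Columbia-0 wild-type plants aged 16 days, grown in hydroponic solution, were moved for 15 min to fresh solution or to solution with added solute, and roots were collected. There were 16 groups of 2 arrays. Besides the control in fresh solution, 4 groups had NaCl (25, 50, 75 or 100 mM added), 3 had sorbitol (50, 100 or 150 mM), 4 had PEG, which is polyethylene glycol 8000 (75, 100, 125 or 150 mM), and 4 had ethylene glycol (50, 100, 150 or 200 mM). All groups, the control included, had the transfer itself in common. Doses are nominal, and since molar amounts of this size are hard to dissolve for so large a polymer, the scale of the PEG axis is uncertain.

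Leucine-rich repeats are short repeated protein segments that form a curved surface for binding other proteins or peptides, and plants use them in many cell-surface and cell-wall proteins. Leucine-rich repeat extensins (the LRX family) join such a binding domain to an extensin domain that is anchored in the cell wall. They bind RALF peptides, small secreted signals, and work with the receptor kinase FERONIA in sensing and adjusting the wall during growth. AT2G15880 belongs to the pollen class of this family. Mutants lacking several vegetative LRX proteins are hypersensitive to salt. The study's title sets changes in turgor beside changes in osmotic potential. Sorbitol and PEG enter root cells slowly and draw water out, ethylene glycol crosses membranes readily so that its effect on turgor is short-lived, and NaCl adds ions to the osmotic effect.

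The values are log2 expression values as deposited, and a difference of 1 is a 2-fold change if the base is as read from their range. Titles numbered 17 to 32 hold 1 array of each group and are called the first title-number series here, and titles numbered 33 to 48 hold the other array and are called the second. These series parted the arrays along the first principal component, which carried 50.4% of the variance. The labels do not state whether the arrays of 1 group stem from separate cultures or plants, so errors and p-values cover the spread between these samples alone, which may be technical in part. In bulk roots, more RNA per cell and more cells that express a gene cannot be told apart. Of the markers fixed for the tissue check, 2 of 10 root markers were named on the array, the root hair expansins EXPA7 (mean log2 7.34) and EXPA18 (6.28). Of 5 markers each, 1 of green tissue (RCA, 3.42) and 3 of pollen (VGD1, 1.73; VGDH1, 2.99; PPME1, 1.50) were named, and levels of different probe sets are not comparable with each other.

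AT1G33600 was higher with each step of NaCl in both series. In the first series it stood at 4.05 in the control and at 4.41, 4.44, 5.01 and 5.49 with 25, 50, 75 and 100 mM NaCl. In the second series it stood at 3.17 in the control and at 3.41, 4.24, 4.68 and 4.89 at the same doses. From 50 mM on, all NaCl arrays lay above both control arrays. At 100 mM the mean was 5.19 ± 0.42, against 3.61 ± 0.62 in the control (SD, n = 2 each), a 2.99-fold difference. The slope over the NaCl doses was 1.64 log2 units per 100 mM (SE 0.19), with 1.39 in the first and 1.88 in the second series.

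With the other solutes the group means of AT1G33600 kept closer to the control than with NaCl at 50 mM or more. Sorbitol at 150 mM (0.42) and PEG at 100 and 150 mM (0.615 and 0.62) lay farther above the control than NaCl at 25 mM (0.30). In the first series these groups were also above NaCl at 50 mM (4.44). Under sorbitol at 50, 100 and 150 mM it had 3.66, 4.19 and 4.58 in the first series and 3.22, 3.28 and 3.48 in the second. Under PEG at 75, 100, 125 and 150 mM it had 4.25, 4.68, 4.33 and 4.76 in the first series and 3.37, 3.77, 3.30 and 3.70 in the second. Every PEG array was above the control of its own series, by 0.13 to 0.71. Under ethylene glycol at 50, 100, 150 and 200 mM it had 3.79, 4.03, 3.95 and 4.18 in the first series and 3.27, 2.77, 3.15 and 3.23 in the second, on both sides of the control.

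Neither the sorbitol slope nor the PEG slope of AT1G33600 passed the test (limma, adjusted p under 0.05 over all genes). The slope was 0.31 per 100 mM of sorbitol (SE 0.14, adjusted p = 0.522), where 0.477% of all genes were called in either direction, and over the treated doses alone it was 0.59 (SE 0.22, adjusted p = 0.683). It was 0.36 per 100 mM of PEG (SE 0.13, adjusted p = 0.206), where 1.01% were called. It was 0.04 per 100 mM of ethylene glycol (SE 0.10), where 0.216% of all genes were called. That slope is a description with no test, since a lower slope with ethylene glycol was known when the gene was chosen. Since both genes were picked for a preference for salt, small slopes under the other solutes are in part a product of that choice.

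**Figure D1:**
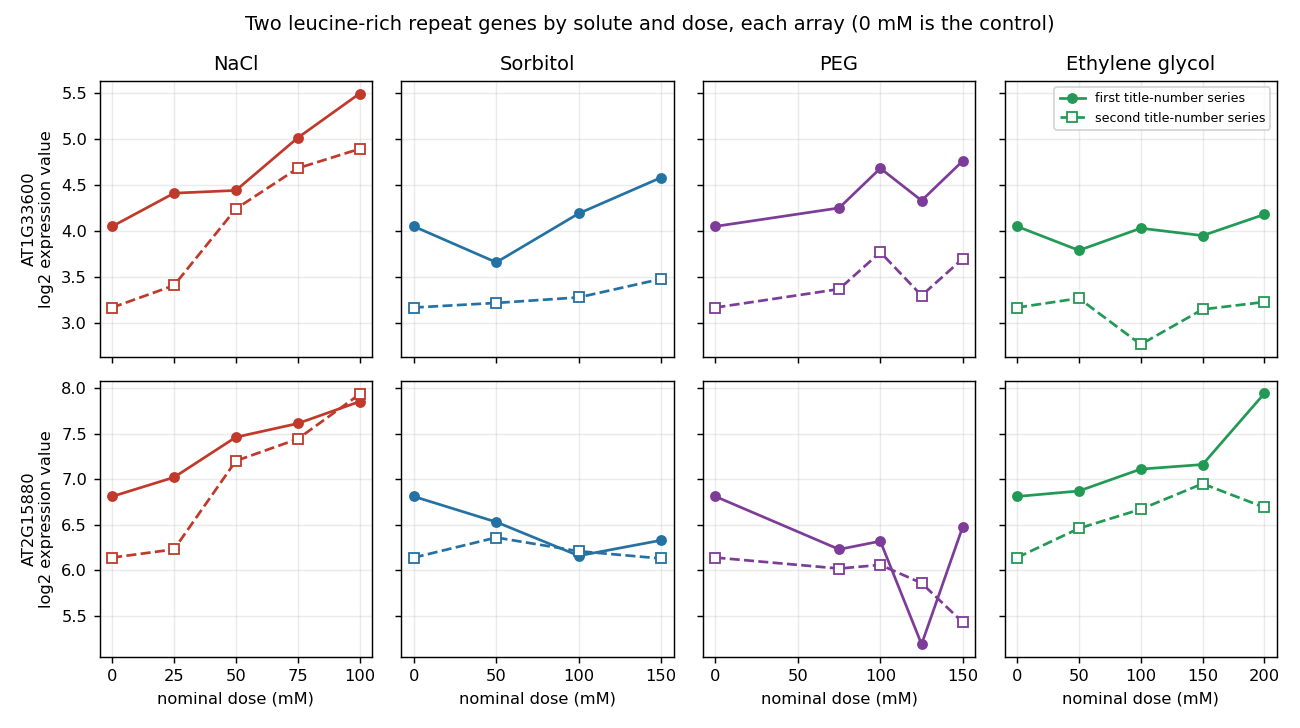
Log2 expression value (vertical axis) of AT1G33600 (top row) and AT2G15880 (bottom row) on each array against the nominal dose in mM of each solute, with the control at 0 mM; filled circles and solid lines are the first title-number series, open squares and dashed lines the second. Both genes climb with NaCl, AT2G15880 also lies above its control at every ethylene glycol dose and below it at every PEG dose, and AT1G33600 lies above its control at every PEG dose.

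AT2G15880 was likewise higher with each NaCl step. In the first series it stood at 6.81 in the control and at 7.02, 7.46, 7.61 and 7.85 with 25, 50, 75 and 100 mM NaCl. In the second series it stood at 6.14 in the control and at 6.23, 7.20, 7.44 and 7.93. The series lay 0.67 apart in the control and within 0.08 of each other at 100 mM NaCl. The mean at 100 mM was 7.89 ± 0.06, against 6.48 ± 0.47 in the control (SD, n = 2 each), a 2.67-fold difference. The slope was 1.49 per 100 mM (SE 0.23), with 1.07 in the first and 1.92 in the second series.

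Outside NaCl the values of AT2G15880 parted by solute. Under ethylene glycol at 50, 100, 150 and 200 mM it had 6.87, 7.11, 7.16 and 7.94 in the first series and 6.46, 6.67, 6.95 and 6.69 in the second. All 8 ethylene glycol arrays were above the control of their own series, by 0.06 to 1.13. Under PEG at 75, 100, 125 and 150 mM it had 6.23, 6.32, 5.19 and 6.48 in the first series and 6.02, 6.06, 5.86 and 5.43 in the second. All 8 PEG arrays were below the control of their own series, by 0.08 to 1.62, and the array at 125 mM in the first series was the lowest of all 32. Under sorbitol at 50, 100 and 150 mM it had 6.53, 6.16 and 6.33 in the first series, all below the control, and 6.36, 6.21 and 6.13 in the second, where 2 of 3 were above it.

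These slopes of AT2G15880 against the control did not pass the test either. Low values under these solutes favoured the choice of the gene, so low or falling slopes are in part a product of it. The ethylene glycol slope was 0.41 per 100 mM (SE 0.12, limma adjusted p = 0.234). Without ethylene glycol 200 mM replicate 2 it was 0.61, whereas without replicate 1 it was 0.22. The PEG slope was -0.47 (SE 0.16, limma adjusted p = 0.166). It was -0.64 without PEG 150 mM replicate 1 and -0.61 without PEG 125 mM replicate 2, but -0.29 without PEG 150 mM replicate 2. The sorbitol slope was -0.20 (SE 0.16, limma adjusted p = 0.809), with -0.09 without control replicate 1 and -0.31 without control replicate 2.

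Averaged over dose pairs, the preference for NaCl was larger at equal mM than at equal nominal osmolarity, where NaCl counts as 2 particles. These averages cover different NaCl doses, since only those at equal nominal osmolarity take in 25 mM. With NaCl held at 50 mM the order went both ways. For AT1G33600 the differences at equal mM and equal nominal osmolarity were 0.90 and 0.605 from sorbitol, and 0.81 and 0.94 from ethylene glycol. For AT2G15880 they were 0.885 and 1.145 from sorbitol, and 0.665 and 0.44 from ethylene glycol. At 100 mM AT1G33600 had 5.49 and 4.89 under NaCl, against 4.19 and 3.28 under sorbitol, 4.68 and 3.77 under PEG, and 4.03 and 2.77 under ethylene glycol. Averaged over the shared doses, NaCl was higher by 1.18 than sorbitol, by 1.00 than PEG and by 1.30 than ethylene glycol (SE 0.15 each). At equal nominal osmolarity the mean difference of AT1G33600 was 0.63 from sorbitol (SE 0.12, 3 dose pairs) and 1.03 from ethylene glycol (SE 0.11, 4 dose pairs). In all 13 matched pairs, 6 at equal mM and 7 at equal nominal osmolarity, the NaCl array was the higher one in both series.

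For AT2G15880 the preference for NaCl was larger against sorbitol and PEG than against ethylene glycol, and PEG was set against NaCl at equal mM only. At 100 mM it had 7.85 and 7.93 under NaCl, against 6.16 and 6.21 under sorbitol, 6.32 and 6.06 under PEG, and 7.11 and 6.67 under ethylene glycol. At equal mM NaCl was higher by 1.30 than sorbitol, by 1.55 than PEG and by 0.83 than ethylene glycol (SE 0.18 each). At equal nominal osmolarity the difference was 0.87 from sorbitol (SE 0.15) and 0.36 from ethylene glycol (SE 0.13), the second between 0.24 and 0.48 with 1 array left out. In the first series 100 mM NaCl gave 7.85 and 200 mM ethylene glycol gave 7.94, so there the order was turned, whereas in the second series NaCl was higher by 1.24. The lowest pair, NaCl at 25 mM with ethylene glycol at 50 mM, differed by -0.04, and its series went opposite ways. So did those of NaCl at 25 mM with sorbitol at 50 mM, which differed by 0.49 in the first and by -0.13 in the second series.

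**Figure D2:**
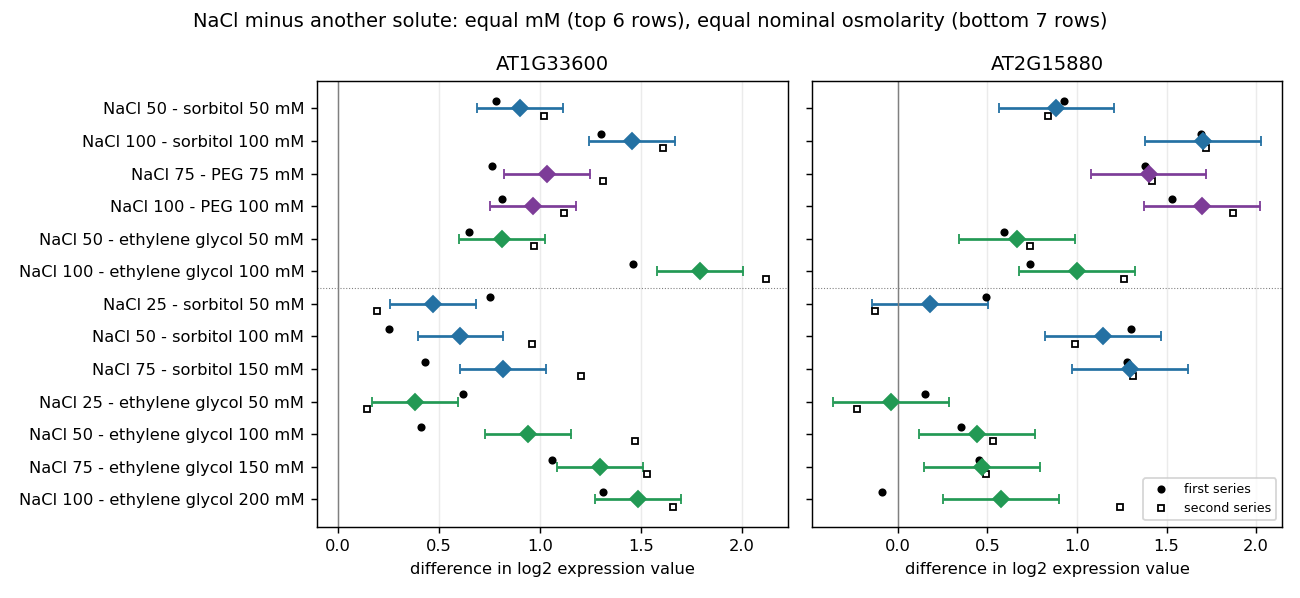
Difference in log2 expression value, NaCl minus the other solute, for AT1G33600 (left) and AT2G15880 (right) in each matched dose pair; diamonds are means over 2 series with bars of 1 SE, blue for sorbitol, purple for PEG and green for ethylene glycol, black circles the first and open squares the second series. All differences of AT1G33600 are above 0, and for AT2G15880 those of NaCl at 25 mM (0.18 from sorbitol and -0.04 from ethylene glycol) lie closest to 0.

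PEG and ethylene glycol share the doses 100 and 150 mM, and their contrast holds neither NaCl nor control arrays. The genes differed in opposite directions. AT1G33600 had 4.68 and 3.77 under PEG at 100 mM, against 4.03 and 2.77 under ethylene glycol, and 4.76 and 3.70 under PEG at 150 mM, against 3.95 and 3.15 under ethylene glycol. PEG was the higher in both series at both doses, while the ranges over all 4 arrays overlapped. The mean difference, PEG minus ethylene glycol, was 0.75 (SE 0.15, 1.68-fold), and between 0.63 and 0.87 with 1 array left out. That AT1G33600 sloped less with ethylene glycol than with the other solutes on average was known when the gene was chosen, so the difference is a description with no test. The comparison called 0.103% of all genes higher.

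AT2G15880 had 6.32 and 6.06 under PEG at 100 mM, against 7.11 and 6.67 under ethylene glycol, and 6.48 and 5.43 under PEG at 150 mM, against 7.16 and 6.95 under ethylene glycol. All 4 PEG arrays lay below all 4 ethylene glycol arrays. The difference was -0.90 (SE 0.18, limma adjusted p = 0.0369), a level 1.87-fold lower under PEG, in a comparison that called 0.0283% of all genes lower. Values under PEG and under ethylene glycol both entered the choice of the gene, so the adjusted p is not independent of that choice. The call was also narrow. With 1 of the 8 arrays left out it passed without PEG 150 mM replicate 1 and was lost in the other 7 fits (adjusted p up to 0.195). Without the series as a replicate block, limma gave an adjusted p of 0.745.

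Sorbitol was set against ethylene glycol at 50, 100 and 150 mM. For AT2G15880 sorbitol was the lower in both series at all 3 doses, with a mean difference of -0.58 (SE 0.15, 95% interval -0.90 to -0.26, limma adjusted p = 0.0814), which did not pass. For AT1G33600 the difference was 0.24 (SE 0.12, interval -0.02 to 0.51), again a description with no test. In this comparison 0.315% of all genes were called in either direction. Between sorbitol and PEG at 100 and 150 mM, AT1G33600 differed by -0.35 (SE 0.15, interval -0.67 to -0.02, limma adjusted p = 0.512) and AT2G15880 by 0.14 (SE 0.18, interval -0.26 to 0.53, adjusted p = 0.885), where 0.0778% were called. The sign for AT2G15880 turned without PEG 150 mM replicate 2 (-0.0568). Values under sorbitol, PEG and ethylene glycol entered the choice of both genes, so the adjusted p given here are not independent of it. The intervals here are per gene and, unlike the adjusted p, not adjusted over all genes. They also use the 15 residual degrees of freedom of the fit, fewer than the moderated limma test uses. The measures can therefore differ.

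**Figure D3:**
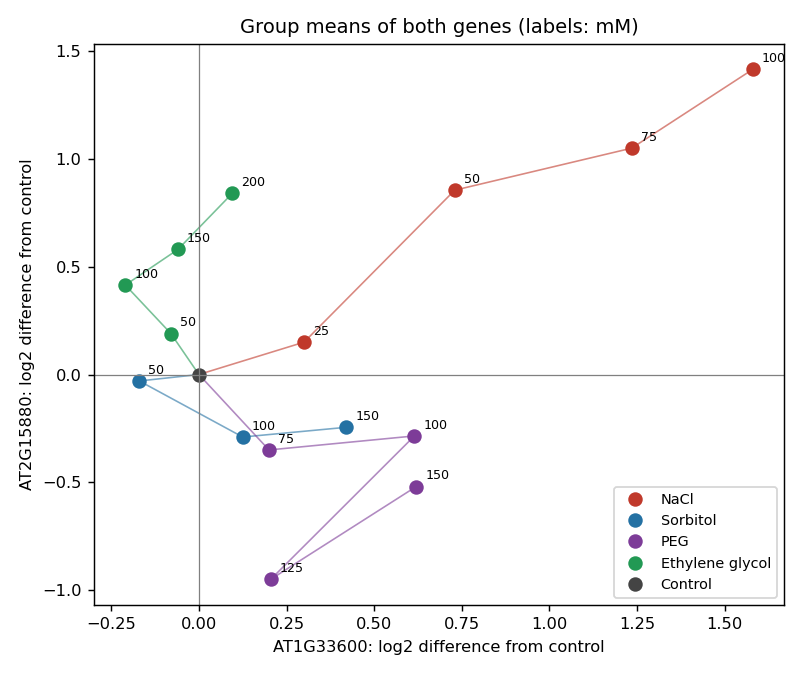
Mean log2 difference from the control over 2 arrays, AT1G33600 on the horizontal and AT2G15880 on the vertical axis, 1 point for each of the 16 groups, labelled with the dose in mM and joined by solute. The NaCl groups run to the upper right, with 1.58 and 1.42 at 100 mM, the ethylene glycol groups run up with little sideways movement, and the PEG groups lie to the lower right.

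Taken over the 16 group means, the genes correlated at r = 0.47 (Spearman's rho 0.13), and at -0.17 without NaCl at 75 and 100 mM, the groups farthest out for AT1G33600. Over the 12 groups without NaCl the correlation was -0.56. These values are descriptions, and all group means rest on the same 2 series. In order of level, NaCl at 100, 75 and 50 mM headed the list for both genes. For AT1G33600, PEG at 150 and 100 mM and sorbitol at 150 mM came next, and ethylene glycol at 100 mM was last. For AT2G15880 ethylene glycol at 200, 150, 100 and 50 mM came next, and PEG at 150 and 125 mM were last. Of the 15 gaps between neighbours, 13 did not exceed 1 SE for either gene, and the gap between NaCl at 100 and 75 mM did for both (0.35 and 0.37).

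Both genes were lower in the second title-number series than in the first, by test. For AT1G33600 the difference, second minus first, was -0.80 (SE 0.08, limma adjusted p = 5.22e-10), and for AT2G15880 it was -0.33 (SE 0.09, limma adjusted p = 0.00282). In the same comparison 28.2% of all genes were lower, so this sets neither gene apart.

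Relatives of AT2G15880 were read for the same slopes. Of 11 LRX genes listed, 8 were named on the array. Of the 7 others, 0 were called in any of the 4 solute slopes by limma (2 of 28 slopes, 7.14%, had an unadjusted p under 0.05, against 9.38% over all genes and the same slopes), and their median NaCl slope was 0.01, against -0.01 over all genes. For the NaCl slope 0.891% of all genes were called higher and 0.202% lower. AT4G33970, of the pollen class like AT2G15880, had the highest NaCl slope among the others at 0.44 (SE 0.26, adjusted p = 0.657), with 2.27 and 2.41 at 100 mM NaCl, against 1.82 and 2.11 in the control. The pollen-class genes AT3G19020 and AT1G49490 had slopes of 0.14 (SE 0.15) and -0.02 (SE 0.26). Mean log2 values were low for AT3G19020 (1.58), AT4G33970 (2.18), AT5G25550 (2.18) and AT1G49490 (2.32), against array medians of 4.11 to 4.24. Signal over background is unknown for these genes, so a flat slope need not mean a steady transcript. The vegetative gene AT4G18670 had the lowest at -0.43 (SE 0.13, limma adjusted p = 0.141), with 6.33 and 6.60 at 100 mM NaCl, against 6.79 and 6.88 in the control. AT3G24480, also vegetative, had -0.19 (SE 0.14).

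Genes near AT1G33600 on chromosome 1 encode similar leucine-rich repeat proteins, so related transcripts could share its probes, which was not tested. AT1G33590, AT1G33610 and AT1G33612 had NaCl slopes of 0.23 (SE 0.17), 0.27 (SE 0.15) and 0.25 (SE 0.23), with limma adjusted p from 0.624 to 0.812. AT1G33610 had 7.32 and 7.10 at 100 mM NaCl, against 7.13 and 6.86 in the control. AT1G33670 (-0.07, SE 0.20), at a low mean log2 value of 1.71, and FLR1 (-0.17, SE 0.15), a gene of the polygalacturonase-inhibitor type, did not pass either. Of these 5 genes, 0 were called in any of the 4 slopes by limma (1 of 20 slopes, 5.0%, had an unadjusted p under 0.05, against 9.38% over all genes). The NaCl slope of AT1G33600 was 1.64.

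**Figure D4:**
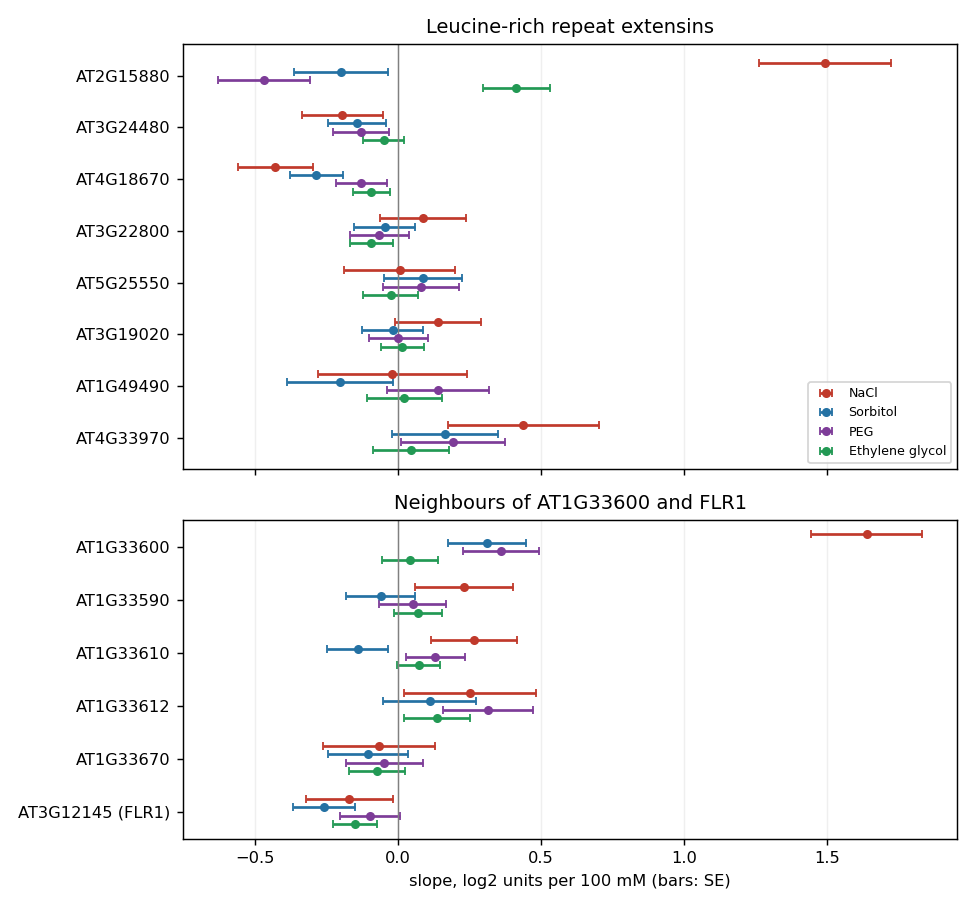
Slopes in log2 units per 100 mM (horizontal axis, bars of 1 SE) for each solute, control at 0 mM, in LRX genes (top) and in genes near AT1G33600 with FLR1 (bottom), 1 gene per line. The NaCl slopes of AT2G15880 (1.49) and AT1G33600 (1.64), which were chosen for them, stand to the right, and the slopes of the other genes lie between -0.43 and 0.44.

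Partners of LRX proteins were listed as RALF peptides and their receptor complex, of which 9 of 17 were named on the array. In the NaCl, sorbitol and ethylene glycol slopes 0 of 9 were called by limma, and in the PEG slope 1 fell, where 0.481% of all genes were called lower. Of the 36 slopes, 9 (25.0%) had an unadjusted p under 0.05, against 9.38% over all genes, and the list was chosen with earlier results known, so nothing particular to it is read from this. The gene that fell was THE1, a receptor kinase of the FERONIA family that senses wall integrity. In both series THE1 lay below the control in every treated group, not under PEG alone, with 6.33 and 5.89 at 25 mM NaCl. Its sorbitol slope was -0.35 per 100 mM (SE 0.10, limma adjusted p = 0.145). It had 6.25 and 6.11 at 150 mM PEG, against 6.96 and 6.77 in the control. The PEG slope was -0.41 per 100 mM (SE 0.09, limma adjusted p = 0.0326). This call was lost without the block (adjusted p = 0.761), after quantile normalisation (0.0619), over the treated doses alone (slope -0.09, 0.943), and without control replicate 1 (0.164) or 2 (0.288) or replicate 2 of PEG 125 mM (0.0532) or 150 mM (0.086). FER, the FERONIA receptor itself, had an NaCl slope of 0.05 (SE 0.11, adjusted p = 0.954), and ANX2, a FERONIA relative of pollen, had 0.61 (SE 0.23, adjusted p = 0.318). Of 6 listed genes of sodium transport and the SOS pathway, 0 were named in the array annotation, and they are not analysed here.

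The named genes most like each member were taken by Pearson correlation over the 16 group means, among 559 genes whose means spanned at least 1 log2 unit. For AT1G33600 they were AT3G56790 (r = 0.87), AT5G07610 (0.86), AT4G27657 (0.82), AT5G19240 (0.81) and AT2G25735 (0.80). AT3G56790 had an NaCl slope of 1.73 and slopes of 0.11, 0.23 and 0.26 with sorbitol, PEG and ethylene glycol. For AT2G15880 they were AT2G37820 (0.85), AT5G65925 (0.85), AT5G51390 (0.85), AT4G27654 (0.82) and AT5G23370 (0.82). The NaCl slopes of these 5 lay between 0.29 and 0.95, while that of AT2G15880 was 1.49. Their ethylene glycol slopes lay between -0.03 and 0.20, while that of AT2G15880 was 0.41. Within the first series, correlations were as low as 0.41 for AT2G15880 (with AT5G23370) and 0.49 for AT1G33600 (with AT5G07610). The lists had 0 genes in common.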

How the data were processed

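Per the labels' protocols, biotin-labelled cDNA from the total RNA of 32 root samples was put on Affymetrix whole-transcript arrays, which have 1 colour. The deposited table holds log2 expression values made by the authors with GCRMA, Transcriptome Analysis Console and Affymetrix Expression Console, per the submitters' processing notes; log base and between-array scaling: not given in the sources used here. Values ran from 0.2 to 12.45, with array medians of 4.11 to 4.24. The number of arrays limits the precision.

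Of 28477 probe sets, 16746 listed 1 gene, 758 several and 10973 none; 16601 of the first kind matched RefSeq (TAIR10.1, names only). The brightest probe set of each gene was kept, leaving 28283 genes, 16539 of them named. The other 11744 are known by probe set only and are counted as genes in every share of all genes. Limma 3.58.1 in R 4.3.3 fitted 1 mean per group on all arrays, with the series of title numbers as replicate block and Benjamini-Hochberg adjustment over all genes at 0.05. The block was put in the main fit because earlier results of these data had shown that the series part the arrays. The deviations of same-series arrays from their group means also went together. In all 120 group pairs they correlated above 0.1, from 0.501 to 0.767. The pairing comes from title numbers, not from a statement in the labels. Contrast SEs are moderated; the SE of a single dose pair in the plot of NaCl differences is the gene's residual SD, and the order of levels uses it too. The fit was tested on simulated data. A planned test of whether the NaCl slope differed between the series is not reported, since both genes were chosen on their NaCl values. Both genes, the gene lists and the tests were chosen with earlier results of these data known. Named genes were the 2 members, list members that passed, with examples of those that did not, and the 5 most correlated genes.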

Additional observations from a re-analysis of the deposited data

How the results depend on the processing

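Each result was recomputed without the replicate block, after centring the arrays on their medians, after quantile normalisation, without the genes below the 0.25 quantile of mean value, with averaged probe sets, for slopes over the treated doses alone, and with each array of the contrast left out in turn. For the PEG slope of THE1 these settings were added after seeing the data. Of 502 such values for 31 results, 476 kept their direction and their side of the threshold or stayed within the spread between arrays. Without the replicate block, PEG minus ethylene glycol no longer passed for AT2G15880 (-0.90, limma adjusted p = 0.745). Nor did the PEG slope of THE1 pass (-0.41, limma adjusted p = 0.761). The block changed no other call among the results given with a test. For AT1G33600, where PEG minus ethylene glycol is a description, the difference without the block was 0.75 (SE 0.40). With 1 array left out, PEG minus ethylene glycol ran from 0.63 to 0.87 (AT1G33600) and from -1.09 to -0.71 (AT2G15880). The other leave-one-out changes were in the PEG slope of THE1 (-0.43 to -0.39) and in AT2G15880. For AT2G15880 the PEG slope ran from -0.64 to -0.29, the ethylene glycol slope from 0.22 to 0.61, and sorbitol minus PEG from -0.0568 to 0.33. The cause was not tested. The NaCl slopes ran from 1.54 to 1.74 (AT1G33600) and from 1.32 to 1.67 (AT2G15880) in these fits. With 2 arrays per group and no detection calls used here, signal over background is unknown.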

Other observations

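The genes called between PEG and ethylene glycol were set beside those that rose with NaCl dose, since the contrasts share no arrays. Both contrasts do share 1 estimate of the spread per gene from the same fit. Genes with little spread are therefore favoured in both lists, and how far this raises the overlap was not tested. Of all genes, 0.891% rose with NaCl dose, while 0.103% were higher and 0.0283% lower under PEG than under ethylene glycol. Of the 29 genes higher under PEG, 14 rose with NaCl dose (48.3% of the 29 and 5.56% of the 252 NaCl risers), AT1G33600 among them. Of the 8 genes lower under PEG, 1 rose with NaCl dose (12.5% of the 8 and 0.397% of the 252), and that was AT2G15880. The other named genes lower under PEG were AT1G17190 and AT3G28140, given here after their values were seen. The counts include both members. They also include entries known by probe set only, since 14 of the 29 and 3 of the 8 are named genes. Both members were chosen for their NaCl values, so their own place among the risers is not a finding. AT1G33600 was also chosen with its lower ethylene glycol slope known, so its place among the 29 is not a finding either.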
